A study of Mus musculus with 3 samples.

Results

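The enzymes that take foreign chemicals, aldehydes, peroxides and superoxide out of cells were compared between RNA of mouse spleen and a reference pool of mouse RNA. The genes were taken by their symbols: cytochromes P450 other than Cyp51, flavin monooxygenases, carboxylesterases, alcohol and aldehyde dehydrogenases, aldo-keto reductases, quinone reductases, glutathione, glucuronyl and sulfotransferases, glutathione peroxidases, peroxiredoxins, superoxide dismutases and all symbols that begin with Txn. The annotation names 71 such genes on 134 probes. A gene was kept where at least 1 of its probes had a value other than 0 on all 3 arrays, and its probes of that kind were averaged, which left 46 genes on 79 probes of 6077 genes measured in the same way.

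Detoxification runs in stages. Monooxygenases, esterases, dehydrogenases and reductases make a reactive group on a molecule or remove one, transferases then attach glutathione, glucuronic acid or sulfate, and transporters export the product. The antioxidant arm destroys superoxide and peroxides, with glutathione and thioredoxin as the electron carriers that NADPH keeps reduced. Many of these enzymes are best known from liver, while in spleen the peroxidases of red cells and phagocytes are the familiar members.

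On each of the 3 two-colour arrays, spleen cRNA in Cyanine-5 (red) was set against cRNA of Universal Mouse Reference RNA (UMRR), a commercial pool made from several cell lines, in Cyanine-3 (green), both after 1 round of amplification, and the arrays form 1 group. Both RNAs were bought, each under a single catalogue number on every array, so the spread behind the p-values is that between arrays and may be technical. The labels name no strain, age, sex or number of animals. Values are log ratios with neither base nor numerator stated. Positive is read here as likely higher in spleen, because red over green is the common convention and because of the marker genes: 3 of 3 B cell, 3 of 3 T cell and 2 of 2 macrophage markers were positive and 2 of 2 fibroblast markers negative. The sample titles put the reference first, which could mean the opposite order, and since every array has the same dye orientation, dye and RNA effects cannot be told apart. In RNA from a whole tissue, fewer cells of a type and less RNA per cell cannot be told apart either. An exact 0 was read as no measurement, and it filled 3940, 4356 and 4051 of the 16273 probes on arrays 1, 2 and 3. The number of arrays limits the precision.

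Gsta4, a glutathione transferase that clears the lipid peroxidation product hydroxynonenal, had the lowest ratio of the 46 genes (-2.15 ± 0.037, SD, n = 3), and Gpx1, the cytosolic glutathione peroxidase, the highest (1.75 ± 0.31, SD, n = 3). If the base is 2 these are 4.44-fold and 3.36-fold, and if the logs are natural 8.59-fold and 5.73-fold. Of the 46 genes, 24 were lower on the spleen side, 14 were higher and 8 did not pass limma's test of the ratio against 0 at an adjusted p of 0.05. The negative calls made up 52.2% of the genes, where 37.1% of all 6077 genes were called negative, and the positive calls 30.4%, where 33.2% of all genes were called positive. Over both signs 70.3% of all genes passed, so a call alone says little about a gene here. The median ratio of the 46 genes was -0.36 against -0.033 for all genes. Ratios of 1 or more were called for 4 of the 46 genes (7.57% of all genes) and ratios of -1 or less for 7 (6.58% of all genes). With a single array left out, the negative calls stayed at 24 and the positive calls numbered 10 to 13. With a running median over 5 probe numbers on either side removed, the counts were 18 negative and 16 positive. Without moderation of the variance 11 of the 38 calls ended (Mgst1, Cyp1b1, Gstt2, Gstz1, Akr1c19, Txndc9, Aldh6a1, Prdx1, Cyp24a1, Ces5a and Sult1c2), and against a 1.5-fold change in base 2, 25 ended.

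**Figure D1:**
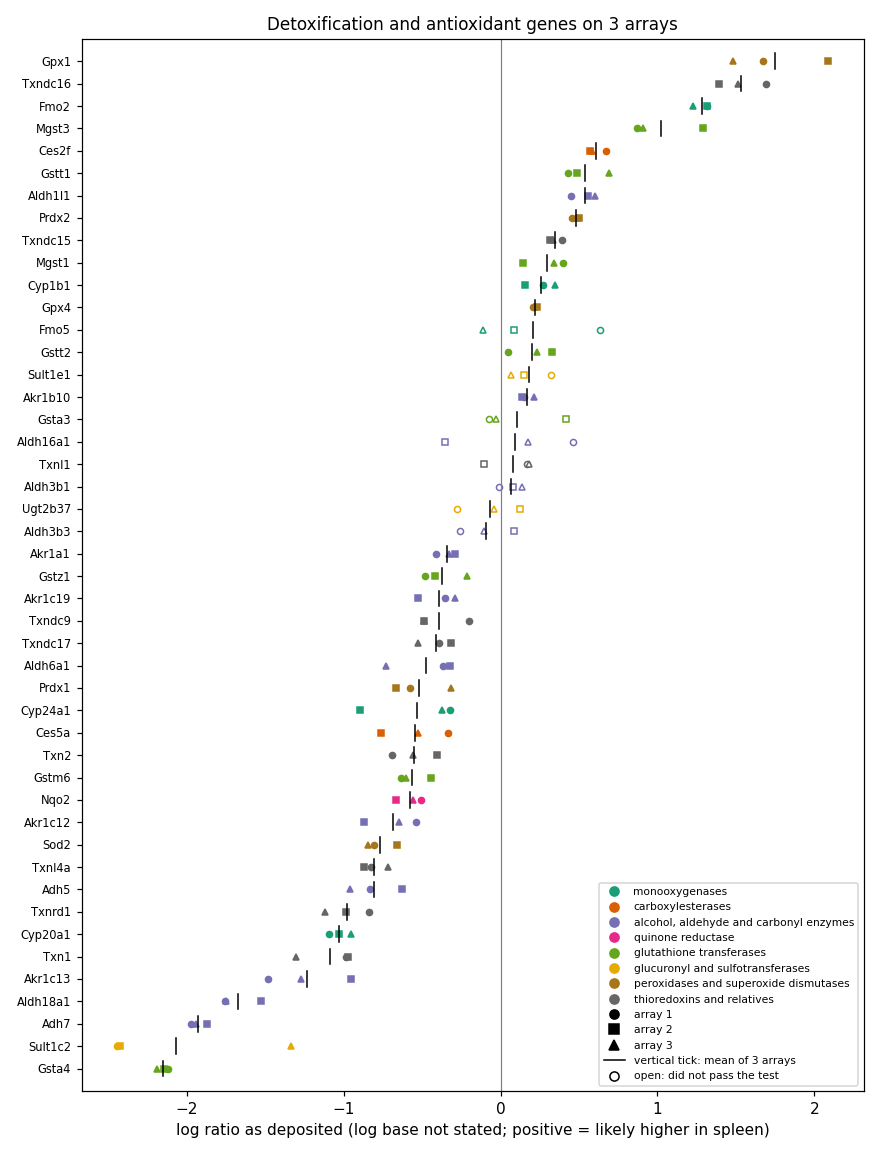
Log ratio of each of the 46 genes (rows) on each array (circle, square and triangle for arrays 1, 2 and 3), with a vertical tick at the mean and colours for the enzyme group; open symbols mark the 8 genes that did not pass the test. The means run from -2.15 for Gsta4 to 1.75 for Gpx1, single arrays from -2.44 for Sult1c2 to 2.09 for Gpx1, and the symbols of most genes lie close together, Sult1c2 being an exception with array 3 at -1.33.

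The 3 arrays placed the genes in a similar order. Across the 46 genes, which share the arrays and are not independent replicates, Spearman's rho between pairs of arrays ran from 0.910 to 0.949 and Pearson's r from 0.943 to 0.957. In 39 genes all 3 arrays had the same sign, and the 7 genes with mixed signs were all among the 8 that did not pass. The median SD over the arrays was 0.140 for the 46 genes and 0.110 for all genes.

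**Figure D2:**
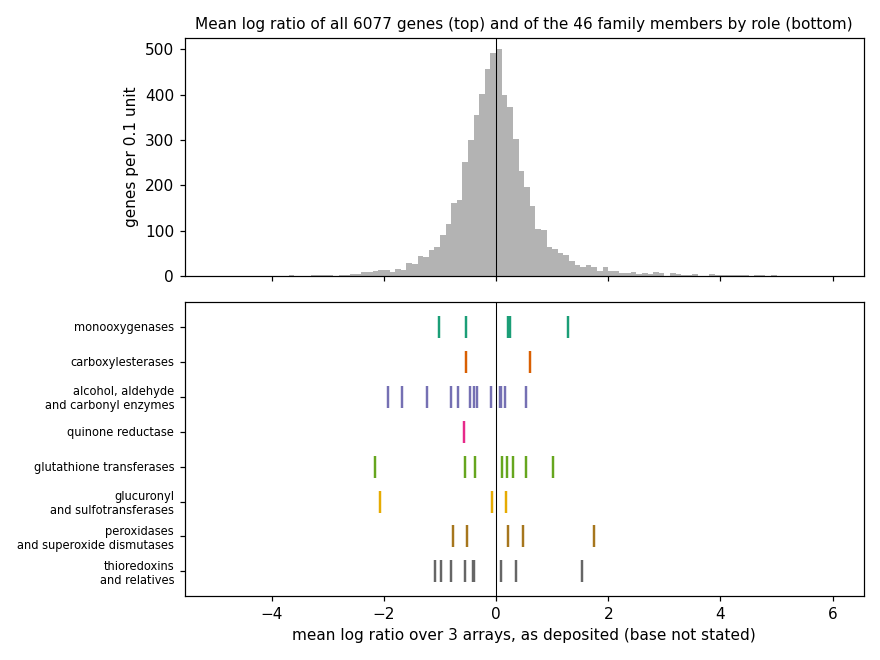
Histogram of the mean log ratio of all 6077 genes (top, genes per bin of 0.1 unit) above the means of the 46 genes, 1 bar per gene, in rows by enzyme group (bottom). The groups spread over both sides of 0, and 9 of 13 alcohol, aldehyde and carbonyl enzymes lie below it, as do 3190 of all 6077 genes.

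Among the monooxygenases, which insert an oxygen atom into their substrates, Fmo2 was the highest and Cyp20a1 the lowest. The flavin monooxygenase Fmo2, which oxidises nitrogen and sulfur in drugs, had ratios of 1.31, 1.31 and 1.22 on arrays 1 to 3 (1.28 ± 0.051, SD, n = 3, limma adjusted p = 2.80e-06). Its relative Fmo5 read 0.63, 0.089 and -0.11, arrays that disagree in sign, and did not pass (0.20, 95% interval -0.11 to 0.52). Without array 3, Fmo5 passed at 0.36 (adjusted p = 0.00407). In that setting limma estimated 1 common variance for all genes, so the call rests on the size of the ratio alone.

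Of 3 measured P450 genes 1 was positive and 2 were negative, where 33.2% of all genes were called positive and 37.1% negative. Cyp20a1, a P450 with no settled substrate, had -1.09, -1.03 and -0.95 (-1.03 ± 0.071, SD, n = 3, limma adjusted p = 9.48e-06). Cyp24a1, which inactivates vitamin D, read -0.32, -0.90 and -0.37, so that array 2 stood well below the others. Its mean was -0.53 ± 0.32 (SD, n = 3), and -0.35 without array 2. Cyp1b1, a P450 of steroids and polycyclic hydrocarbons induced through the aryl hydrocarbon receptor, had 0.27, 0.16 and 0.34 (0.26 ± 0.095, SD, n = 3, limma adjusted p = 0.0117). The Cyp1b1 call ended without array 1 (adjusted p = 0.0626) and without array 3 (0.103), and its second probe was listed at 0 on all arrays. With 0 kept as a measured ratio the calls of Cyp1b1 (0.13) and Cyp24a1 ended and Fmo2 fell to 0.64, with a running median over 5 probe numbers on either side removed the call of Cyp24a1 ended and the ratios of Cyp1b1 (0.14) and Cyp20a1 (-0.48) shrank, and with 20 probe numbers the call of Cyp1b1 ended (0.12) and Fmo5 passed (0.31).

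Most P450 genes on the array could not be compared. Beside the 3 measured ones, 10 P450 genes lacked a value on at least 1 array. Cyp1a1, Cyp3a11 and Cyp4a10 were listed at 0 on all 3 arrays, as were Cyp2c55, Cyp4f13 and Cyp4v3. Cyp2c37 had 0.79 on array 1 and 0.85 on array 3. A value of 0 is not to be read as an absent transcript.

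The carboxylesterases Ces2f and Ces5a, enzymes that split esters and amides, went opposite ways. Ces2f had 0.67, 0.57 and 0.58 (0.61 ± 0.056, SD, n = 3, limma adjusted p = 0.000116) and was positive on every array. Ces5a averaged -0.34, -0.76 and -0.53 (-0.54 ± 0.21, SD, n = 3, adjusted p = 0.00127), and its 2 probes differed widely, with means of -1.02 and -0.069. The second of these did not pass by itself, the call of the gene ended with 0 kept (adjusted p = 0.0564), and the probe with the larger ratio alone would give -1.02.

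Alcohol, aldehyde and carbonyl enzymes were the largest group, with 8 of 13 genes negative, 2 positive and 3 not past the test. Over all genes 37.1% were called negative and 33.2% positive. Their median was -0.39. Adh7, the alcohol dehydrogenase of stomach and other epithelia that also oxidises retinol, had -1.98, -1.87 and -1.94 (-1.93 ± 0.054, SD, n = 3, limma adjusted p = 4.47e-07). Both of its probes were called, at -2.35 ± 0.26 and -1.51 ± 0.33 (SD, n = 3). They moved opposite ways between arrays, with -2.40, -2.58 and -2.06 against -1.55, -1.16 and -1.82. The small SD of the Adh7 mean therefore covers a wider spread in each probe. Adh5, which has 4 genes between it and Adh7 in the genome and removes formaldehyde bound to glutathione, had -0.83, -0.63 and -0.96 (-0.81 ± 0.17, SD, n = 3, adjusted p = 9.25e-05). The direction of Adh5 depended on the processing: it became positive, and was called, at 0.27 when a running median over 5 probe numbers was removed.

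The aldehyde dehydrogenases included genes whose known work lies outside detoxification. Aldh18a1, which makes the proline precursor from glutamate, read -1.75, -1.52 and -1.75 (-1.67 ± 0.13, SD, n = 3, limma adjusted p = 1.55e-06). Aldh6a1, an enzyme of valine breakdown, was also lower, at -0.47 ± 0.22 (SD, n = 3). The folate enzyme Aldh1l1 was the highest of the family, with 0.45, 0.56 and 0.60 (0.54 ± 0.078, SD, n = 3, adjusted p = 0.00027). Aldh3b1 (0.069), Aldh3b3 (-0.091) and Aldh16a1 (0.094) did not pass, and Aldh3b1 and Aldh3b3, which oxidise lipid aldehydes, have 1 gene between them in the genome. The Aldh6a1 call ended with 0 kept and with the trend over 5 probe numbers removed (-0.13), and 20 probe numbers brought it to -0.27. Aldh3b1 passed with 5 probe numbers (0.40), Aldh16a1 passed without array 2 (0.32, adjusted p = 0.0191) and turned negative without array 1 (-0.092), and Aldh3b3 turned positive under both windows (0.13 and 0.062), without a call. With 1 array left out Aldh3b1 ran from 0.034 to 0.11 and Aldh3b3 from -0.18 to -0.0082.

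Of 5 aldo-keto reductases, which reduce aldehydes and ketones with NADPH, 4 were negative, where 37.1% of all genes were called negative. Akr1c13, Akr1c19 and Akr1c12 stand next to each other in the gene order, and all were negative. Akr1c13 had -1.48, -0.95 and -1.27 (-1.24 ± 0.27, SD, n = 3, limma adjusted p = 3.67e-05), Akr1c12 averaged -0.68 ± 0.17 (SD, n = 3) and Akr1c19 -0.39 ± 0.12 (SD, n = 3). Genes of this cluster are alike in sequence, so a probe may bind more than 1 of them. Removing the trend over 5 probe numbers reduced Akr1c13 to -0.42, Akr1c12 to -0.11, where its call ended, and Akr1c19 to -0.20, and with 20 probe numbers Akr1c13 stood at -0.78.

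Akr1a1, the general aldehyde reductase, was measured by more probes than any other of the 46 genes. Its 9 probes had means from -0.56 to -0.0029 and 7 of them were called, all negative, for a gene mean of -0.34 ± 0.061 (SD, n = 3, limma adjusted p = 0.00226). With a single probe, that with the largest ratio, it would read -0.56, and with the trend over 5 or 20 probe numbers removed -0.20 or -0.21. Akr1b10 was the positive member of the family, with 0.15, 0.14 and 0.21 (0.17 ± 0.040, SD, n = 3, adjusted p = 0.0459). This call rests on 1 of its 2 probes (0.33 against 0.0014) and ended without any 1 of the arrays (adjusted p = 0.135, 0.0595 and 0.284 without arrays 1, 2 and 3) and with probes measured on 2 arrays included (0.0506). The ratio of Akr1b10 grew to 0.33 with its stronger probe alone, and to 0.41 and 0.27 with the trend over 5 and 20 probe numbers removed. Nqo2, a quinone reductase, was negative at -0.57 ± 0.081 (SD, n = 3), and both of its measured probes were called.

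**Figure D3:**
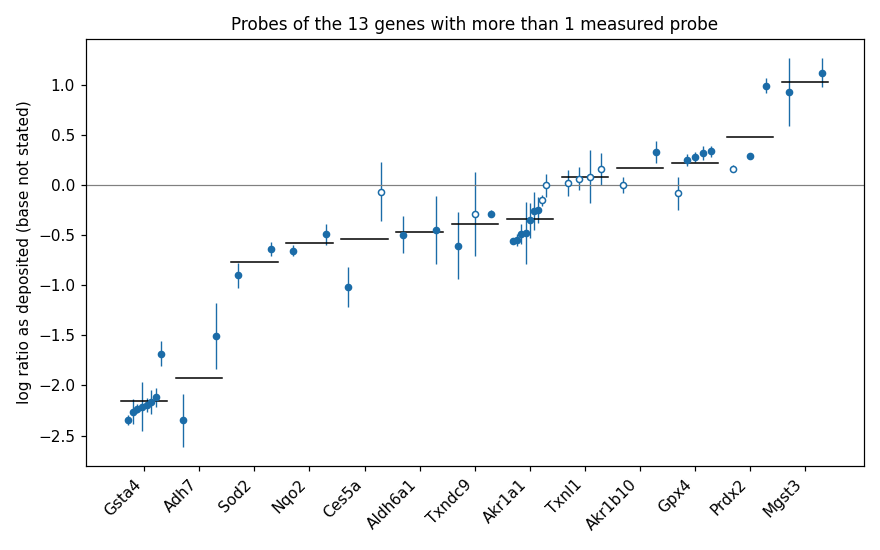
Mean log ratio of each probe (points, with SD over 3 arrays as bars) of the 13 genes with more than 1 measured probe, ordered by the gene mean (horizontal line); open points did not pass the probe test. The 8 probes of Gsta4 lie between -2.34 and -1.68, while the probes of Ces5a and of Prdx2 lie apart.

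Probes of a gene differed more in size than in sign. Of the 13 genes with several probes, 6 had every probe called in 1 direction and 0 had probes called in opposite directions, with 68.3% of all measured probes called. Gpx4 was the only one of the 13 whose probe means differed in sign. Txnl4a, with 1 fully measured probe, is not among the 13. Another of its probes had the opposite sign on the 2 arrays where it had a value.

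Glutathione transferases went both ways, with 4 of 8 genes positive, 3 negative and 1 not past the test. Of all genes 33.2% were called positive and 37.1% negative. All 8 measured probes of Gsta4 were called negative, at -2.34 to -1.68. The gene means were -2.12, -2.15 and -2.19 on arrays 1 to 3 (limma adjusted p = 2.72e-07). No other gene of the 46 had a lower mean, and the mean lay at percentile 1.00 of all genes. Of its other probes, 1 read -2.32 on array 2 alone and 1 was listed at 0.

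The other members of the cytosolic family had smaller ratios. Gsta3, of the same class as Gsta4, read -0.076, 0.42 and -0.026, and its mean of 0.10 did not pass (95% interval -0.14 to 0.35). Gstm6 was negative at -0.56 ± 0.10 (SD, n = 3), as was Gstz1, an isomerase of tyrosine breakdown, at -0.37 ± 0.14 (SD, n = 3). The theta class genes Gstt1 and Gstt2, which have 1 gene between them in the genome, were positive. Gstt1 had 0.43, 0.49 and 0.69 (0.54 ± 0.14, SD, n = 3, limma adjusted p = 0.000513), and Gstt2 had 0.045, 0.33 and 0.23 (0.20 ± 0.14, SD, n = 3, adjusted p = 0.0456). The Gstt2 call ended without array 2 (adjusted p = 0.162), without array 3 (0.154), with 0 kept (0.158), with the strongest probe of each gene (0.0532) and with probes measured on 2 arrays included (0.0503). Removing the trend over 5 and 20 probe numbers ended the Gstt1 call (0.0072 and 0.051), and 5 probe numbers moved Gstt2 to 0.31, Gstz1 to -0.56 and Gsta3 to a called 0.47, with 0.25, also called, for Gsta3 at 20. The Gstz1 call ended with 0 kept (-0.12), and Gsta3 turned negative without array 2 (-0.051).

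Both microsomal glutathione transferases, membrane enzymes that act on lipid hydroperoxides and leukotriene precursors, were positive. Mgst3 had 0.87, 1.29 and 0.91 (1.02 ± 0.23, SD, n = 3, limma adjusted p = 6.11e-05), with both measured probes called at 0.93 and 1.12. Mgst1 had 0.40, 0.14 and 0.34 (0.29 ± 0.13, SD, n = 3, adjusted p = 0.00928). With 0 kept Mgst3 was 0.57 and Mgst1 did not pass (adjusted p = 0.0735), and Mgst1 also lost its call without array 1 (0.24, adjusted p = 0.0701).

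Among the enzymes that attach sulfate or glucuronic acid, 1 of 3 passed, where 70.3% of all genes did. Sult1c2, a sulfotransferase of phenols, had -2.44, -2.43 and -1.33 (-2.07 ± 0.64, SD, n = 3, limma adjusted p = 9.35e-05). Arrays 1 and 2 were nearly equal and array 3 stood higher, which gives this gene the widest spread of the 46, and the call ended without moderation of the variance. The estrogen sulfotransferase Sult1e1 had 0.32, 0.15 and 0.068 (0.18, limma adjusted p = 0.0605), 0.11 without array 1 and 0.34 with the trend over 5 probe numbers removed, and passed with the arrays centred on their median (0.21, adjusted p = 0.0368). Ugt2b37, a glucuronyltransferase, did not pass at -0.066 (95% interval -0.27 to 0.14) and turned positive without array 1 (0.042) and with the trend over 5 or 20 probe numbers removed (0.14, and 0.22 with a call).

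Of 5 peroxidases and dismutases Gpx1, Gpx4 and Prdx2 were positive, while Prdx1 and the dismutase Sod2 were negative. Over all genes 33.2% were called positive and 37.1% negative. The calls of Gpx1, Gpx4 and Prdx2 each ended in at least 1 of the 16 settings. Gpx1, the selenium enzyme that reduces hydrogen peroxide in red cells and most other cells, had 1.67, 2.09 and 1.48 (limma adjusted p = 1.10e-05). Its second probe read 1.69 on array 1 and 0 on the others, and with 0 kept the call ended (1.16, adjusted p = 0.062). Prdx2, the abundant peroxiredoxin of red cells, averaged 0.45, 0.50 and 0.49 (0.48 ± 0.024, SD, n = 3, adjusted p = 0.000341). The 3 probes behind that mean were at 0.16, 0.29 and 0.99, so the agreement of the arrays covers a spread between probes. The median probe gave Prdx2 0.29, the strongest 0.99, and the call ended with 0 kept (0.38, adjusted p = 0.0744).

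Erythroid markers were positive in the same direction: 3 of the 6 listed were measured, Slc4a1 at 1.72, Hbb-bs at 2.64 and Hba-a1 at 3.22, and Alas2 had a value on 1 array. Markers of macrophages were measured for 2 of 6, Ctss at 1.35 and Aif1 at 3.58, with Csf1r listed at 0 on every array. The part of these cells in the ratios of Gpx1 and Prdx2 was not tested.

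Gpx4, which reduces lipid hydroperoxides in membranes, had a small positive ratio that rests on 4 of its 5 probes. Its ratios were 0.20, 0.23 and 0.22 (0.22 ± 0.013, SD, n = 3, limma adjusted p = 0.0149). The annotation gives 4 of its 5 probes the same accession, and these were called at 0.25 to 0.34, whereas the fifth read -0.084 and did not pass. With probes of 1 accession averaged first the ratio was 0.10 and the call ended (adjusted p = 0.185), and the call also ended without array 1 (0.0654) and without array 3 (0.0942). The strongest probe gave 0.34, and removing the trend over 20 probe numbers 0.14. Gpx3, the plasma glutathione peroxidase, had a value on array 3 alone, 2.23.

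Prdx1, another cytosolic peroxiredoxin, had -0.58, -0.67 and -0.31 (-0.52 ± 0.18, SD, n = 3, limma adjusted p = 0.00109), opposite in sign to Prdx2. Akr1a1, its direct neighbour in the gene order, was negative as well. Sod2, the manganese superoxide dismutase of mitochondria, was negative at -0.77 ± 0.097 (SD, n = 3), and both measured probes were called at -0.90 and -0.64. The copper and zinc enzymes could not be compared, since Sod1 had -0.48 on array 1 alone and Sod3 was listed at 0. The ratio of Prdx1 shrank with 0 kept (-0.26, against -0.51 for Sod2) and with the trend over 5 and 20 probe numbers removed (-0.15 and -0.25).

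The thioredoxin system was negative throughout its 3 measured genes, where 37.1% of all genes were called negative. Txn1, the cytosolic thioredoxin, had -0.98, -0.97 and -1.30 (-1.09 ± 0.19, SD, n = 3, limma adjusted p = 2.66e-05). Txnrd1, the selenium enzyme that reduces it with NADPH, had -0.84, -0.99 and -1.12 (-0.98 ± 0.14, SD, n = 3, adjusted p = 2.46e-05). The mitochondrial thioredoxin Txn2 was at -0.55 ± 0.14 (SD, n = 3). With 0 kept the calls of Txn1 (-0.96, adjusted p = 0.0834) and Txnrd1 (-0.80, adjusted p = 0.0887) ended and Txn2 was -0.28, and Txn2 fell short of the test and turned to 0.054 with the trend over 5 probe numbers removed, against -0.21 with 20. The mitochondrial reductase Txnrd2 and Txnrd3 were listed at 0.

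The 6 genes whose names begin with Txndc or Txnl share a thioredoxin fold and mostly act elsewhere. Of these 2 were positive, 3 negative and 1 did not pass, where 33.2% of all genes were called positive and 37.1% negative. Txndc16 had 1.69, 1.39 and 1.52 (1.53 ± 0.15, SD, n = 3, limma adjusted p = 3.15e-06) and was the highest gene of the Txn group, with Txndc15 positive too at 0.35 ± 0.039 (SD, n = 3). Txnl4a, a protein of the spliceosome, had -0.80 ± 0.080 (SD, n = 3), Txndc17 had -0.41 ± 0.11 (SD, n = 3), and Txndc9, which binds the chaperonin that folds actin and tubulin, -0.39 ± 0.17 (SD, n = 3). Txnl1, a partner of the proteasome, did not pass at 0.083 over 4 probes, with 0.032 to 0.18 when 1 array was left out. Without these 6 genes the counts were 21 negative, 12 positive and 7 not past the test of 40 genes. Txndc15 shrank to 0.094 under both windows, with its call lost at 20 probe numbers, Txndc17 lost its call with 0 kept and shrank to -0.25 at 5, and Txndc9 lost its call at 5 (-0.023) and shrank to -0.17 at 20. With the strongest probe Txndc9 was -0.60, and Txnl4a was -0.23 with 0 kept and -0.44 when probes measured on 2 arrays were included. The Txnl4a ratio rests on 1 probe. Another of its probes had the opposite sign, 0.22 on array 1 and 0.45 on array 3, and a further probe read -0.32 on array 3 alone.

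Many detoxification genes answer to the factor Nrf2 at the antioxidant response element or to the aryl hydrocarbon receptor at the xenobiotic response element, so RefSeq promoter windows of build GRCm38.p6 (250 bases before to 50 after a start) were searched for both core motifs on both strands. Of the 46 genes 41 matched windows by symbol. Cyp24a1, Gsta4, Gstt2, Txnl1 and Txnl4a are only named. The antioxidant core TGACNNNGC was found in 5 of 54 windows (9.26%), where 12.4% of all 32851 windows hold it. By gene, 3 of 21 called negative, 1 of 13 called positive and 1 of 7 not called had it. The xenobiotic core GCGTG was found in 23 of 54 windows (42.6%), where 32.4% of all windows hold it. By gene, 10 of 21 called negative, 7 of 13 called positive and 1 of 7 not called had it, and 35.2% of all genes with windows did. The search counts letters in a window, and neither a match nor its absence was tested against binding.

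The antioxidant core matches that lie before the start are printed here with 16 bases on either side, the match in capitals. Of the 5 genes with this motif 3 were called negative, 1 was called positive and 1 was not called. A link between motif and ratio was not tested. A match on the opposite strand reads as the reverse complement of the core. The windows run 5′ to 3′ along the gene, all on the plus strand of the genome: Txnrd1 at chr10:82859098-82859138, Prdx1 at chr4:116685450-116685490, Gsta3 at chr1:21240448-21240488 and Mgst1 at chr6:138140455-138140495.
Txnrd1: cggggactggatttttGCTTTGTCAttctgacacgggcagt
Prdx1: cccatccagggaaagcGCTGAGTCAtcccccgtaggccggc
Gsta3: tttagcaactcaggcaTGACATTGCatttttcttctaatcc
Mgst1: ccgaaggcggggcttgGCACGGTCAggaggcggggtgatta

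The matches begin 92, 133, 121 and 56 bases before the start, in that order. Beside them, the mean ratio was -0.98 for Txnrd1, -0.52 for Prdx1, 0.10 for Gsta3, which did not pass, and 0.29 for Mgst1. The fifth match, in Akr1c19 (-0.39), lies after the start.

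For Cyp1b1, a textbook target of the aryl hydrocarbon receptor, 1 xenobiotic core match lies 76 bases before the start. The window shown runs along the gene, on the minus strand of the genome at chr17:79715117-79715153. Its match, in capitals, reads as the reverse complement of the core, so the core itself lies on the plus strand. The core is also in windows of genes with negative ratios, Adh7 and Aldh18a1 among them. The ratio of Cyp1b1 was 0.26, and that of the receptor gene Ahr was -0.49 ± 0.15 (SD, n = 3).
Cyp1b1: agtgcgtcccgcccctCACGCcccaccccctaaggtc

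Partner genes of these enzymes were taken from 8 lists, of which 37 genes were measured: 20 were negative and 12 positive, while 5 missed the threshold. The median of the 37 was -0.24, against -0.033 for all genes. Of all 6077 genes 37.1% were called negative and 33.2% positive. With 70.3% called over both signs, counts within such short lists say little. The genes listed under NADPH supply and under glutathione synthesis and recycling lay mainly on the reference side. Of 4 NADPH genes 3 were negative and 1 did not pass, led by the malic enzyme Me1 with -2.43, -2.44 and -2.49 (-2.45 ± 0.034, SD, n = 3, limma adjusted p = 1.58e-07), and -1.21 with 0 kept. The pentose phosphate enzymes Pgd and Tkt read -0.35 and -0.29, and Rpe -0.095 without a call. Pgd was -0.18 with 0 kept and -0.12 with the trend over 5 probe numbers removed. The Tkt call ended with the arrays centred (-0.26), without array 1 (-0.18, adjusted p = 0.234), without array 3 (-0.24, adjusted p = 0.0607) and with 0 kept (-0.14), and its ratio was 0.073 with the trend over 5 probe numbers removed.

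Of 6 measured genes listed under glutathione synthesis and recycling 5 were negative and 1 was positive, and they include genes with other roles. Chac1, an enzyme that degrades glutathione, had -2.20, -2.71 and -1.94 (-2.28 ± 0.39, SD, n = 3, limma adjusted p = 7.06e-06), and the glutaredoxin Glrx3 had -0.93. Slc3a2, the heavy chain of the cystine transporter, read -0.73, and 0.050 without a call once the trend over 5 probe numbers was removed. Ggct, which acts on glutamyl dipeptides from glutathione, was positive at 1.03 ± 0.097 (SD, n = 3), and at 0.66 and 0.68 under the windows of 5 and 20. Glutathione reductase, Gsr, had values on 2 arrays and was not compared.

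Other antioxidant genes divided evenly, with 4 of 10 positive, 5 negative and 1 not past the test. Selenop, the plasma selenium carrier, had 2.55, 2.44 and 2.65 (2.55 ± 0.11, SD, n = 3, limma adjusted p = 2.13e-07), and Sesn1, a stress-induced sestrin, 1.48 (0.99 with the trend over 5 probe numbers removed). The metallothionein Mt1 was at -1.22 (-0.61 with 0 kept), and Srxn1, the sulfiredoxin that repairs overoxidised peroxiredoxins, at -1.12 ± 0.25 (SD, n = 3). The regulators of the Nrf2 pathway could hardly be read: of 10 listed, Cul3 alone was measured and did not pass (-0.084, with the sign turned under both windows and without array 3), and Keap1 was listed at 0.

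**Figure D4:**
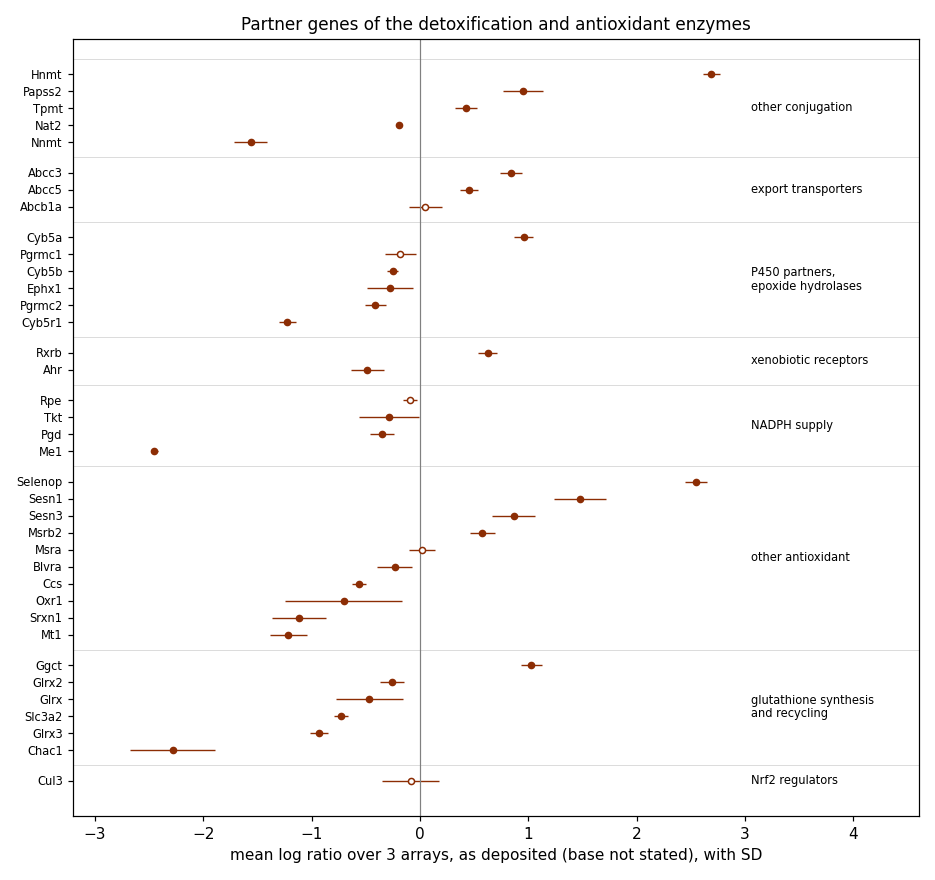
Mean log ratio (points, with SD over 3 arrays as bars) of the 37 measured partner genes in 8 lists, named at the right; open points did not pass the test. Hnmt (2.69) and Selenop (2.55) lie highest, Me1 (-2.45) and Chac1 (-2.28) lowest.

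Of 5 other conjugation genes 3 were positive and 2 negative. The histamine methyltransferase Hnmt had 2.77, 2.70 and 2.61 (2.69 ± 0.080, SD, n = 3, limma adjusted p = 1.39e-07), while Nnmt, which methylates nicotinamide, had -1.56 ± 0.15 (SD, n = 3). Papss2, which makes the sulfate donor that sulfotransferases use, was positive at 0.95 and Tpmt, a thiopurine methyltransferase, at 0.43, though Tpmt read -0.064 without a call with the trend over 5 probe numbers removed and 0.15 with 20. Of 6 P450 partners and epoxide hydrolases 4 were negative, 1 positive and 1 did not pass. Cyb5r1 read -1.23, Pgrmc2 -0.41 and the epoxide hydrolase Ephx1 -0.27, against 0.96 for the electron donor cytochrome b5, Cyb5a. The Ephx1 call ended without array 1 (-0.16, adjusted p = 0.179), with 0 kept and with both windows (-0.13 and -0.21). Of 3 export pumps Abcc3 (0.84) and Abcc5 (0.45) were positive and Abcb1a did not pass (0.049, and -0.038 without array 2), and of 2 receptor genes Rxrb was positive (0.62, and 0.33 with 0 kept) and Ahr negative. The calls of Ahr (adjusted p = 0.0613), Pgd (0.0623), Tkt and Ephx1 ended without moderation of the variance. Cyb5a was 0.48 with 0 kept, and the stronger of 2 probes of Pgrmc2 gave -0.69.

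Markers of organs rich in these enzymes were read beside the members. Of 10 hepatocyte markers Ttr alone was measured, at 1.90, and Fgb had values on 2 arrays. Exocrine pancreas markers were positive for 5 of 6 measured genes, from 1.65 for Amy2a5 to 4.54 for Ctrb1, with Cel at -0.14 not past the test, and 0 of 5 listed kidney tubule markers were measured. The part of pancreas or liver RNA in the ratios of the detoxification genes was not tested.

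The remaining 25 of the 71 genes had no probe with a value on all 3 arrays and entered no test. Listed at 0 on every array were 17 of them: beside the 6 P450 genes, Sod3, Txnrd2 and Txnrd3 already given, these were Akr1e1, Aldh1b1, Aldh9a1, Gstm2, Gstm7, Gsto1, Sult2a8 and Sult4a1. The other 8 had a value on 1 or 2 arrays. Among these, Gpx3 (2.23 on array 3), Ces2g (0.68 on array 2), Cyp4f14 (0.66 on array 2) and Sult1d1 (0.54 and 0.62 on arrays 1 and 2) were positive, like Cyp2c37. Cyp7b1 (-0.44 on array 3) was negative, like Sod1, and Cyp2c70 read 0.021 on array 2 and -0.022 on array 3. By probe, 59.0% of the 134 probes of these families and 69.6% of the 12336 probes with 1 symbol had a value on all 3 arrays.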

How the data were processed

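The authors deposited a table of signed log ratios (log fold of the 2 dyes) for 16273 probes on 3 two-colour arrays. How the arrays were scanned, corrected and normalized is not stated in the labels, nor is the base of the logs. Values were tested as deposited, although the test had been planned for log2 ratios. Medians of the 11086 probes measured on all 3 arrays were -0.028, -0.029 and -0.027, and probes with adjacent numbers deviated together (r = 0.441 to 0.588). Gene names came from the platform annotation (12336 probes with 1 symbol), and all 134 probes used here matched their RefSeq symbol by gene ID. Probes were averaged per gene, and 6077 genes were tested in R 4.3.3 by limma 3.58.1 (an intercept against 0, two-sided, with empirical Bayes variances and p-values adjusted by Benjamini-Hochberg over all genes to a threshold of 0.05). The fit was tested on simulated data. Every measured member may be named; array values are given for called members with a mean beyond 1 either way and for the highest and lowest of each family with 2 or more measured members, with those of Txnrd1, Cyp24a1, Gsta3 and Gstt2 added after their values were seen, and up to 4 genes with the largest ratios are named from each partner list. The members and lists were chosen with earlier results of these data known. The 16 alternatives comprise centring, quantile normalization, variance moderation, thresholds, combining probes, the handling of 0, windows of 5 and 20 probe numbers and leaving out each array. Averaging by accession was added after seeing the data. Figures used matplotlib 3.10.9 in Python 3.11.15.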

Additional observations from a re-analysis of the deposited data

How the results depend on the processing

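Of the 38 called genes, 9 kept their call and sign in all 16 settings: Txndc16, Fmo2 and Mgst3 positive, and Gsta4, Adh7, Aldh18a1, Akr1c13, Cyp20a1 and Txnl4a negative. For Txnl4a, a probe measured on 2 arrays was positive on both. The share of all genes that kept their call in every setting is not given here, so the 9 cannot be set against it. The positive calls fell from 14 to 4 against a 1.5-fold change in base 2 and to 9 with 0 kept, and the negative calls from 24 to 9 against a 1.5-fold change. The negative calls among partner genes fell from 20 to 12 without variance moderation and to 7 against a 1.5-fold change. Over all genes 2770 passed without moderation and 1208 against a 1.5-fold change, in place of 4270. With 1 array left out, positive calls ran from 10 to 13 and negative calls stayed at 24, and among the uncalled genes Fmo5 ran from -0.0099 to 0.36, Aldh16a1 from -0.092 to 0.32, Ugt2b37 from -0.16 to 0.042, Gsta3 from -0.051 to 0.20, Txnl1 from 0.032 to 0.18, Aldh3b1 from 0.034 to 0.11, Aldh3b3 from -0.18 to -0.0082, Sult1e1 from 0.11 to 0.23, Cul3 from -0.19 to 0.062 and Abcb1a from -0.038 to 0.11. Among the called genes, 2 turned sign, both with the trend over 5 probe numbers removed: Adh5 to 0.27 and Txn2 to 0.054. In that setting 18 genes were negative and 16 positive, and Ugt2b37 read 0.14, Aldh3b3 0.13, Cul3 0.0059, Slc3a2 0.050, Tkt 0.073 and Tpmt -0.064, and with 20 probe numbers Ugt2b37 read 0.22, Aldh3b3 0.062 and Cul3 0.028. The running median includes the probe's own ratio, so it can remove real ratios; the cause of these changes was not tested. Without array 3 limma estimated 1 common variance for all genes, so calls in that setting rest on the size of the ratio alone. Signal over background is unknown here. Each ratio already pairs spleen with the reference on 1 array, and there was no second group of arrays for a replicate block.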
